A study of Lycium barbarum and Lycium ruthenicum with 30 samples.

Results

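Of the 326276 unigenes assembled from fruits of red wolfberry (Lycium barbarum, LB) and black wolfberry (Lycium ruthenicum, LR), the 200 whose level varied least across both species and all stages of ripening were taken as a set of stable unigenes. A unigene is a cluster of transcripts built from the reads without a genome, here the nearest thing to a gene, and it carries the name that the Trinity assembler gave it. Each of the 30 libraries was divided by a median-of-ratios factor, computed over the 37527 unigenes above 0 in all 30. A unigene was eligible where its scaled level, in FPKM (fragments per kilobase of transcript relative to all mapped fragments), was 10 or more in all 30 libraries, which 7834 unigenes were. The 200 eligible unigenes with the lowest standard deviation (SD) of log2 scaled FPKM were the members. The rule therefore used every value of the members, so their spread, levels and differences are described here and are not tested.

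Fruits were sampled at 5 stages, from young fruit (S1) through green (S2), colouring (S3) and immature (S4) to mature fruit (S5). Each of the 10 groups held 3 libraries of polyadenylated RNA, from fruits of 3 trees. Nothing in the labels ties a replicate number to a tree across stages. The study names fewer shrubs of each species than libraries, so some trees gave fruit at more than one stage. The main fit below takes the libraries as independent. The LR fruits came from wild shrubs, and the LB fruits from watered, cultivated shrubs of a nursery at another place, so the design cannot tell species from place or from watering. No plant was mutated or treated. A library is named by species, stage and replicate, as LB4-3. In whole fruit, fewer cells of a type and less RNA per cell cannot be told apart.

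Stable transcripts serve as the yardstick of expression studies. A quantitative PCR measurement of one gene is read against a reference gene, and the scaling of an RNA-seq library assumes that most genes, or some known genes, do not move. Classical reference genes code for parts that every plant cell needs, such as actin of the cytoskeleton, tubulin, ubiquitin, elongation factors and the ribosome. During ripening a fleshy fruit loses its chloroplasts, softens its walls and fills with sugars and pigments within weeks. Black wolfberry also fills with anthocyanins. Whether this makes ripening a hard setting for classical reference genes was not tested here. For its quantitative PCR, the study tested beta-actin and another common reference gene, and reports both as stable enough for use.

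The SD of the members ran from 0.114 to 0.240 on the log2 scale, with a median of 0.215, against a median of 0.552 over the 7634 eligible unigenes outside the set. The highest library was below 2 times the lowest in 162 of the 200 members, and was 3 times the lowest or more in 0 of them. Outside the set the median ratio of highest to lowest library was 4.34. The edge of the set was not a gap. TRINITY_DN80226_c3_g1 in place 200 had an SD of 0.2398 and TRINITY_DN100558_c1_g1 in place 201 had 0.2401. TRINITY_DN99800_c2_g2 (0.239) and TRINITY_DN97214_c0_g2 (0.239) stood just inside, while TRINITY_DN99543_c3_g1 (0.240) and TRINITY_DN95362_c3_g1 (0.240) stood just outside. The set is thus the lower end of a continuous range.

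The most stable unigene was TRINITY_DN97009_c0_g2, with an SD of 0.114. Its scaled FPKM in LB was 20.8, 20.3 and 19.5 at S1, 18.8, 18.8 and 17.0 at S2, 18.3, 19.3 and 17.5 at S3, 16.5, 19.2 and 22.2 at S4, and 20.4, 22.5 and 21.1 at S5. In LR it was 21.9, 21.9 and 20.9 at S1, 21.3, 20.05 and 19.7 at S2, 20.8, 21.0 and 19.4 at S3, 19.4, 20.7 and 21.3 at S4, and 21.0, 20.7 and 17.7 at S5. The species overlapped, and the lowest and the highest of the 30 values, 16.5 and 22.5, both lay in LB.

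The next in order were TRINITY_DN85625_c4_g1 and TRINITY_DN78740_c0_g5. TRINITY_DN85625_c4_g1 (SD 0.131) ran from 19.7 through a median of 22.4 to 27.6 scaled FPKM in LB, and from 18.9 through 22.9 to 26.7 in LR. TRINITY_DN78740_c0_g5 (SD 0.148) ran from 41.9 through 52.1 to 61.8 in LB, and from 43.9 through 52.9 to 65.6 in LR. In both, the ranges of the species lay almost on top of each other. TRINITY_DN85905_c1_g1 (SD 0.150) was at 47.8 to 59.2 in LB and at 49.4 to 75.2 in LR, with medians of 54.5 and 57.6. TRINITY_DN100275_c2_g2 (SD 0.150) was at 14.1 to 22.2 in LB and 14.8 to 17.9 in LR, with medians of 17.1 and 16.5. The first of these spread more in LR and the second more in LB.

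The remaining 7 of the 12 most stable members were TRINITY_DN97117_c0_g3, TRINITY_DN93225_c0_g1, TRINITY_DN97920_c1_g1, TRINITY_DN98304_c0_g3, TRINITY_DN78650_c1_g2, TRINITY_DN92149_c1_g1 and TRINITY_DN98034_c1_g1. Their SDs ran from 0.156 to 0.169, and their species means differed by -0.14 to 0.08 on the log2 scale (LR minus LB). TRINITY_DN98034_c1_g1, the most abundant of the 12, ran from 54.1 through 69.7 to 84.2 scaled FPKM in LB and from 55.7 through 67.7 to 86.1 in LR. No gene name or function is given to these unigenes in the sources used here and they carry assembler names only.

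**Figure D1:**
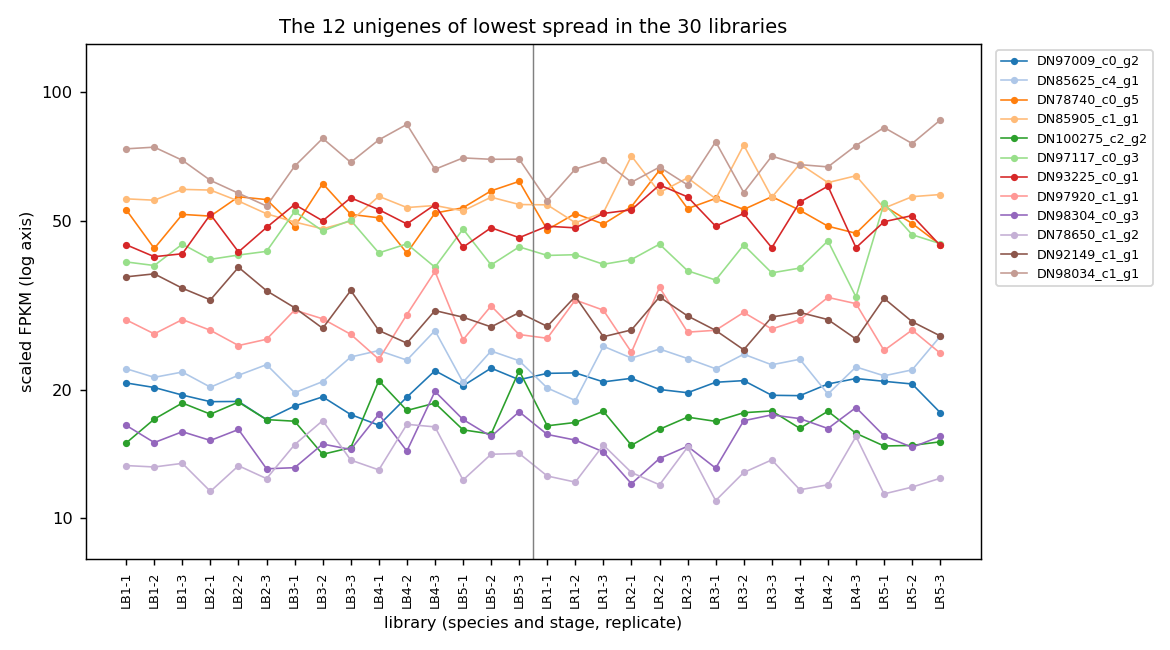
Scaled FPKM (log axis) of the 12 members of lowest SD in each of the 30 libraries, 15 of LB to the left of the grey line and 15 of LR to the right. Each point is 1 library, and lines only join the points of a unigene; TRINITY_DN97009_c0_g2 stays between 16.5 and 22.5, and the species means of the 12 differ by -0.14 to 0.13 on the log2 scale.

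The members were transcripts of modest level. Their median scaled FPKM over the 30 libraries ran from 13.1 to 179, with a median of 24.9, against 43.9 for the other eligible unigenes. Of the 680 eligible unigenes with a median under 20, 58 (8.53%) were members, of the 3750 between 20 and 50, 103 (2.75%), of the 1763 between 50 and 100, 32 (1.82%), and of the 1564 between 100 and 1000, 7 (0.448%). Of the 77 at 1000 or more, 0 were members, and the lowest SD among them was 0.321. The minimum of 10 in every library bears on this, since a unigene with a median just above 10 was eligible only if no library fell far below it. Higher values were not limited, and the part of the minimum in the members' modest level was not tested. With no minimum beyond a value above 0, 148 of the 200 unigenes of lowest SD were members.

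The most abundant member was TRINITY_DN89380_c2_g1, at 118 to 264 scaled FPKM in LB (median 166) and 161 to 204 in LR (median 184). TRINITY_DN91647_c3_g1 followed, at 109 to 198 in LB (median 168) and 127 to 174 in LR (median 149). Both spread more in LB than in LR. TRINITY_DN98094_c3_g1, TRINITY_DN88061_c1_g1, TRINITY_DN100493_c1_g3 and TRINITY_DN67110_c3_g2 had species medians between 108 and 135, and the last of them had the lowest SD of the 6, 0.182. At the lower end, TRINITY_DN94930_c1_g5 had medians of 14.1 in LB and 12.3 in LR, TRINITY_DN84083_c0_g1 of 13.2 and 13.4, and TRINITY_DN78650_c1_g2 of 13.4 and 12.4. The last was also among the 12 most stable.

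**Figure D2:**
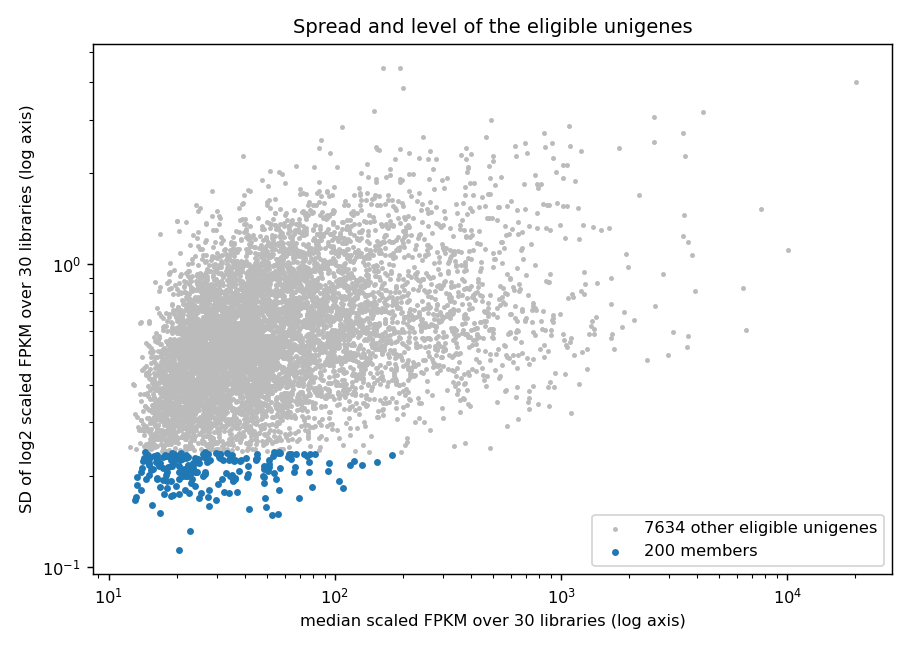
SD of log2 scaled FPKM over the 30 libraries (log axis) against the median scaled FPKM (log axis) for the 7834 eligible unigenes, with the 200 members in blue and the other 7634 in grey. The members form the lower edge, which thins out towards high levels, and the member of highest level has a median of 179.

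Between the species, the members' mean difference (LR minus LB) ran from -0.37 to 0.34 on the log2 scale, with 95 members higher in LR and 105 higher in LB and a median of -0.01. These signs moved with the scaling. With upper-quartile scaling 143 of the 200 were higher in LR, with scaling by the summed FPKM of unigenes under 1000 the number was 138, and with deposited FPKM it was 0. The median over all 37527 unigenes above 0 throughout moved along with the members, to 0.11, 0.10 and -0.71 respectively, from 0.01 under the main scaling. The members' median lay -0.01 from it under each scaling, since a scaling shifts all unigenes of a library alike.

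TRINITY_DN90578_c1_g1 had the largest difference towards LR. It ran from 12.2 through a median of 14.03 to 17.1 scaled FPKM in LB and from 15.4 through 18.2 to 21.6 in LR, a difference of 0.34. TRINITY_DN102010_c3_g3 (0.31), TRINITY_DN80226_c3_g1 (0.27) and TRINITY_DN99288_c1_g1 (0.26) came next. In the other direction, TRINITY_DN90757_c1_g1 ran from 63.0 through 72.0 to 93.6 in LB and from 52.5 through 58.0 to 65.1 in LR, a difference of -0.37. TRINITY_DN73030_c1_g1 (-0.35), TRINITY_DN90783_c0_g2 (-0.32) and TRINITY_DN83222_c1_g2 (-0.27) followed. Even in these 8 the libraries of the species overlapped, and over 15 libraries against 15 the species did not overlap in 0 of the 200 members, beside 6.6% of all eligible unigenes.

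A limma model was fitted over the 111217 unigenes that reached an FPKM of 1 in 3 libraries or more. Calls needed a 2-fold difference and a limma p under 0.01 after Benjamini-Hochberg adjustment. By this rule 0 of the 200 members were called between the species at any of the 5 stages, beside 54% of all unigenes called at 1 stage or more. At an unadjusted p under 0.05, 102 members passed at 1 stage or more, beside 82.1%. By the adjusted p alone 22 members were called at 1 stage or more, beside 56.4%. Since the rule that chose the members used these same values, nothing is read from the gap.

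The 3 libraries of a species at a stage still separated from the 3 of the other in a number of members. At S1 the values did not overlap in 70 of the 200 (47.4% of all tested unigenes), at S2 in 48 (45.8%), at S3 in 54 (46.5%), at S4 in 44 (43.5%) and at S5 in 56 (48.5%). At S1, 26 of the 70 were higher in LR and 44 lower, and at S5, 36 of the 56 were higher in LR and 20 lower. These directions were not counted under the other scalings or over all tested unigenes. The rule used these values, so nothing is read from the counts or their directions. The differences between stage means were small in either direction, at most 0.64 on the log2 scale.

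Across ripening, the range of the 5 stage means of a member had a median of 0.37 on the log2 scale in LB and 0.30 in LR, and reached 0.74 and 0.68. The spread over 15 libraries was larger in LB than in LR for 136 of the 200 members, beside 72.6% of the other eligible unigenes. The members that moved most in LB did so in different ways. TRINITY_DN64634_c0_g1 was highest in young fruit, with 43.4, 37.7 and 36.4 scaled FPKM at S1, and lowest at S3, with 25.3, 21.0 and 24.2. TRINITY_DN96115_c2_g1 was lowest at S1, with 17.1, 16.8 and 18.2, and highest at S3, with 28.6, 33.7 and 23.5. Both were named for the size of this range.

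TRINITY_DN90106_c2_g1 had a peak at the colouring stage of LB. It stood at 58.4, 60.7 and 56.7 scaled FPKM at S1, at 94.6, 107 and 85.6 at S3, and at 66.3, 62.9 and 65.3 at S5. In LR its stage means stayed within 0.28 of each other on the log2 scale. In LR the largest range was that of TRINITY_DN86015_c1_g4, at 11.6, 16.5 and 13.1 at S2 and at 27.3, 21.0 and 18.0 at S5. TRINITY_DN100099_c1_g1 went from 48.9, 54.4 and 51.0 at S1 of LR to 78.0, 68.0 and 89.7 at S5. TRINITY_DN99015_c0_g1 went from 30.1, 26.7 and 32.1 at S1 to 43.2, 41.8 and 46.5 at S5. These members and stages were named for the size of their range, and no test was made on them.

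From young to mature fruit, 133 of the 200 members were higher at S5 in LR and 104 in LB. That is 66.5% and 52.0%, beside 64.1% and 64.4% of the other eligible unigenes. In LR the higher side kept the majority under each scaling, with 119 members under upper-quartile scaling, 115 under the scaling by summed FPKM and 123 with deposited FPKM. In LB it did not, with 59, 59 and 63. The share of the other eligible unigenes was not computed under these scalings. In LR the median change over all eligible unigenes was also above 0 under them, at 0.11, 0.10 and 0.13. The majority in LR is thus not particular to the members. Under the main scaling the members' median change was 0.11 in LR and 0.02 in LB. That stood against 0.16 and 0.24 over all eligible unigenes and 0.04 and 0.03 over all unigenes above 0 throughout. Of the 200, 76 were higher at S5 in both species, 39 lower in both, 57 lower in LB and higher in LR, and 28 the reverse. Across the members the changes of the species correlated with a Pearson r of 0.22, against 0.49 across the 7634 other eligible unigenes. These are correlations across genes, which are not independent replicates and which share the libraries and their scaling.

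The stage of the highest mean was the same in both species for 50 of the 200 members, 25%, beside 25.9% of the other eligible unigenes. In LR 74 members (37%) had their highest mean at S5, beside 38.4% of the others, and in LB 58 (29%) at S4, beside 22.6%, while S3 led among the others in LB with 36.4%. At 2-fold and an adjusted p under 0.01 (limma), 0 members were called in any of the 10 stage comparisons, beside 23.4% of all tested unigenes called in 1 or more. At an unadjusted p under 0.05, 114 members passed in 1 comparison or more, beside 71.1%. By the adjusted p alone it was 9 members, beside 25%, and 3 to 10 with 1 library left out. In the F test over the 5 stages, 11 members were called in LB, beside 23.7%, and 0 in LR, beside 13.1%. From S1 to S5 the 3 libraries did not overlap in 63 members in LB, beside 34.4%, and in 55 in LR, beside 25.1%. These counts too rest on the values that the rule used.

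**Figure D3:**
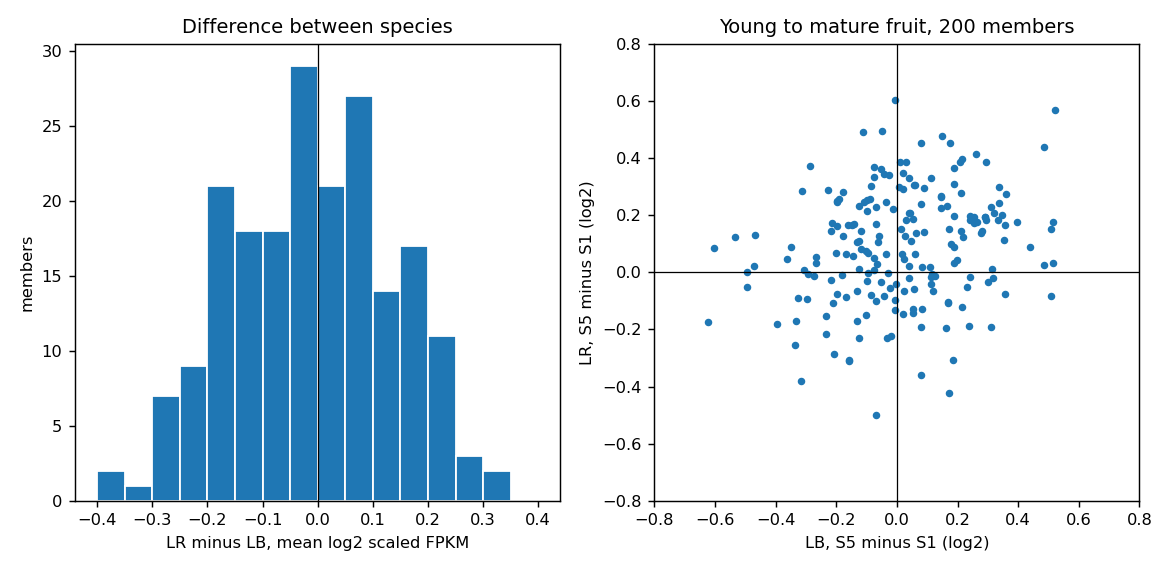
Left, number of members by mean difference between species (LR minus LB, log2 scaled FPKM), all between -0.37 and 0.34. Right, change from S1 to S5 on the log2 scale in LB (horizontal) and in LR (vertical), 1 point for each of the 200 members; 133 points lie above 0 on the LR axis and 104 on the LB axis.

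The remaining spread of a member lay mostly between stages and between replicate libraries. Of its sum of squares over the 30 libraries, the median share was 6.94% between species, 41.3% between the stages of a species and 44.2% among the 3 libraries of a group, which hold 3.45%, 27.6% and 69.0% of the degrees of freedom. Outside the set the medians were 21.9%, 45.6% and 21.8%. The SD among the 3 libraries of a group was 0.169 at the median of the members and 0.300 outside.

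A few libraries carried the extremes. LB4-3 was the highest of the 30 in 30 members and the lowest in 10, LB5-2 the lowest in 32 and the highest in 10, and LB3-2 the highest in 21 and the lowest in 14. Without LB4-3 and LB5-2, 159 of the 200 unigenes of lowest SD were members.

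Which unigenes were in the set depended on the scaling. The factors ran from 0.414 in LR4-3 to 1.52 in LB1-3, with 1.08 to 1.52 in LB and 0.414 to 1.05 in LR. The 10 most abundant unigenes held 17.5% to 42.2% of the summed FPKM in LR and 6.51% to 17.9% in LB. In LR4-3, the library of lowest factor, they held 42.2%, the highest share of the 30. The part of this share in the choice of members was not tested.

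As deposited, the summed FPKM of the 200 members was 9257 ± 673 in LB (SD, n = 15) and 5800 ± 1515 in LR (SD, n = 15). It ran from 2979 in LR4-3 to 10445 in LB1-3. After scaling the sums were 7104 ± 213 in LB (SD, n = 15) and 7057 ± 214 in LR (SD, n = 15). Within LR the deposited sums were lowest at S4, at 4143 ± 1204 (SD, n = 3), and highest at S5, at 6938 ± 496 (SD, n = 3), while the scaled sums were 7185 ± 13.2 and 7283 ± 142 (SD, n = 3 each). The members thus sat near one level only on the scaled values. Their scaled sums still differed between stages. In LR they were lowest at S1, at 6795 ± 126 (SD, n = 3), and highest at S5. In LB they ran from 6892 ± 118 at S2 to 7335 ± 72.3 at S4 (SD, n = 3 each). The nearness to one level follows from the rule, which chose the unigenes of lowest spread on those values.

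On deposited FPKM, 111 of the 200 members reached 10 in all libraries, and their SD had a median of 0.523. Of the 200 unigenes of lowest SD chosen on deposited FPKM, 3 were members, TRINITY_DN76991_c2_g1, TRINITY_DN91578_c3_g2 and TRINITY_DN80226_c3_g1, the first pair named after their values were seen. Those 200 had a median SD of 0.369 as deposited, and after scaling all 200 of them were higher in LR, by a median of 0.57 on the log2 scale. Every LB factor was above every LR factor, so the scaling itself moves each unigene towards LR. The members' median difference (LR minus LB) was -0.72 as deposited and -0.01 after scaling. With deposited FPKM 143 of the members were called at 2-fold between the species at 1 stage or more (limma, adjusted p under 0.01), in place of 0, beside 58.4% of all tested unigenes in that fit. Upper-quartile scaling kept 109 of the 200, among them all 12 most stable members, in places 2 to 174.

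**Figure D4:**
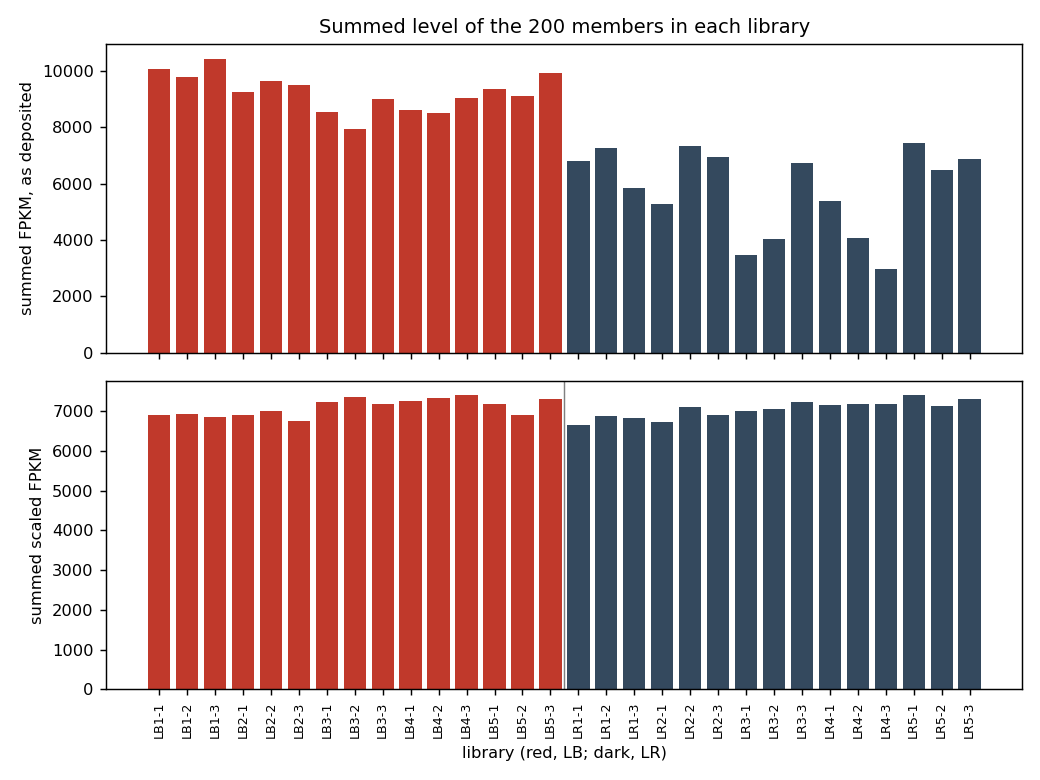
Summed FPKM of the 200 members in each of the 30 libraries as deposited (top) and after median-of-ratios scaling (bottom), with LB in red and LR in dark. The deposited sums run from 2979 in LR4-3 to 10445 in LB1-3, and the scaled sums from 6653 to 7405.

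A measure in which the scaling cancels is the mean SD of the log2 ratio of a unigene with every other eligible unigene, as used for choosing PCR reference genes. Which unigenes were eligible still rested on the main scaling. By this measure, which was added after the data were seen, 52 of the 200 lowest unigenes were members. TRINITY_DN97117_c0_g3 held place 34, TRINITY_DN78650_c1_g2 place 41 and TRINITY_DN98034_c1_g1 place 45, whereas TRINITY_DN97009_c0_g2 held place 341. The eligible unigenes had a median species difference of -0.21, against 0.01 over all unigenes above 0 throughout, so that the yardstick of this measure was not the one of the main scaling.

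Lists chosen in one species were then measured in the other. The scaling factors were still those over all 30 libraries. Lists chosen anew with factors computed within each species had median SDs of 0.227 in LR and 0.295 in LB, in place of those below. The same rule applied to the 15 LB libraries alone gave 200 of 10650 eligible unigenes, with SDs of 0.091 to 0.191. In the 15 LR libraries, on log2(scaled FPKM + 0.5), these 200 had a median SD of 0.234 (quartiles 0.179 and 0.295), against 0.386 over all 10650. In LR, 178 of the 200 were below that median, and 128 were below the lower quartile of all 10650. The rule applied to the 15 LR libraries gave 200 of 11093, with SDs of 0.080 to 0.153. In LB their median SD was 0.305 (quartiles 0.224 and 0.406), against 0.512, with 179 of 200 below the median and 134 below the lower quartile. In both directions the spread in the other species was larger than in the species of choice and smaller than that of all eligible unigenes. The larger spread follows from choosing the lowest SDs in one species, and the SDs of choice were taken without the offset of 0.5.

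The lists differed in how they passed the stages of the other species. In the F test over 5 stages (limma, adjusted p under 0.01), 15 of the 200 chosen in LB were called in LR, 7.5%, beside 17.2% of the unigenes eligible in LB and 13.1% of all tested. Of the 200 chosen in LR, 98 were called in LB, 49.0%, beside 48.5% of the unigenes eligible in LR and 23.7% of all tested. The stage means of the LR list in LB had a range of 1 or more on the log2 scale for 40 of the 200, beside 55.5% of the eligible. In the other direction it was 7 of the 200, beside 29.5%. The median range was 0.63 for the LR list in LB, against 1.09 over the eligible. For the LB list in LR it was 0.39, against 0.67. With deposited FPKM the called numbers were 46 in LR, beside 15.1% of all tested, and 35 in LB, beside 23.9%.

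A low spread in one species did not always come with a like level in the other. Of the list chosen in LB, 165 of 200 (82.5%) were at 10 or more in all LR libraries, beside 73.6% of the eligible, and of the list chosen in LR, 172 (86.0%) in all LB libraries, beside 70.6%. TRINITY_DN77181_c0_g2 stood at 71.7 to 96.1 scaled FPKM in LR and at most at 0.0592 in LB, and TRINITY_DN76062_c0_g1 at 15.1 to 20.4 against at most 0.120. TRINITY_DN94224_c3_g1 stood at 34.2 to 49.5 in LB and at most at 0.594 in LR, and TRINITY_DN99382_c0_g4 at 21.9 to 34.3 against at most 0.960. These 4 were the unigenes of the lists under 1 in every library of the other species. They were named after their values were seen, like the next one. TRINITY_DN84640_c5_g1 had the largest spread of the LB list in LR, with a median of 0 and a highest value of 6.92, against 16.2 to 24.1 in LB.

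The lists of the species shared 21 unigenes, 10.5% of each, and 15 of these were among the 200 members. The list chosen in LB held 68 of the members (34.0%) and that chosen in LR 48 (24.0%), and 99 members were in neither. TRINITY_DN85905_c1_g1 held the first place in LB and TRINITY_DN97009_c0_g2 in LR. The latter was also in place 16 in LB, while the former was in place 354 in LR.

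**Figure D5:**
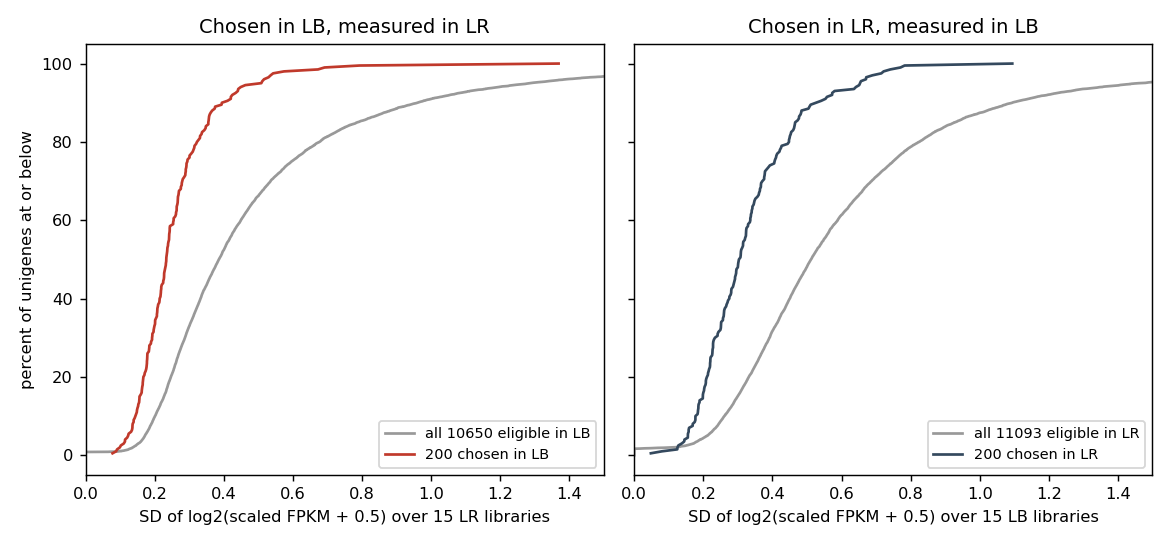
Percent of unigenes at or below a given SD of log2(scaled FPKM + 0.5) in the species that was not used to choose them, for lists chosen in LB and measured in LR (left) and the reverse (right), up to an SD of 1.5. The coloured curves of the 200 chosen lie left of the grey curves of all eligible unigenes over most of the range, with medians of 0.234 against 0.386 on the left and of 0.305 against 0.512 on the right.

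The same was done with the replicate numbers, which no label ties to trees, so that a tree may have fruit on both sides of the split. Lists chosen without the 10 libraries of a replicate number shared 139 to 156 unigenes with the 200. In the 10 libraries left out their median SD was 0.210, 0.244 and 0.235 without numbers 1, 2 and 3, against 0.532, 0.587 and 0.519 over all unigenes eligible in the other 20 libraries. Below that median lay 200 of the 200 without number 1, 199 without number 2 and 200 without number 3. The spread of a list in the libraries left out stood beside a spread in the 20 libraries of choice of 0.215, 0.1997 and 0.199.

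The names of the unigenes, which the rule did not use, place related transcripts in one Trinity component. Another unigene of the same component was present for 165 of the 200 members, 82.5%, beside 83.4% of the other eligible unigenes. An eligible one was present for 41 members, 20.5%, beside 26.2%. In 12 members the component held another member, which made 6 pairs. TRINITY_DN90464_c0_g1 and TRINITY_DN90464_c0_g4 moved most alike over the 30 libraries, with a Pearson r of 0.62, and TRINITY_DN87086_c2_g1 and TRINITY_DN87086_c2_g2 had 0.59, whereas TRINITY_DN99863_c1_g1 and TRINITY_DN99863_c1_g2 had -0.21. Reads of near-identical sequences can be split between such unigenes, so their values are uncertain. No member's component held a unigene at 10 or more in all libraries of one species and under 1 in all of the other (0 of 200), which 81 of the 7634 other eligible unigenes had (1.06%).

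Annotation in the sources used here covers 605 unigenes, of pathways that the study chose because they changed in these libraries, so that a low count of stable unigenes among them is no independent evidence. Of these, 76 were eligible and 0 were members. The closest was TRINITY_DN91500_c0_g3 of glycerophospholipid metabolism, the making of membrane lipids, in place 1782 with an SD of 0.389. The ribosome, a classical source of reference genes, had 16 of 18 listed unigenes eligible, the most of any list, and 0 members, and its most stable, TRINITY_DN102018_c3_g1, stood in place 4119 with an SD of 0.560.

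Unigenes picked for quantitative PCR in the study lay at the other end of the scale. The study took them from genes it had called different in these libraries, so their large spread follows from that choice and is no independent contrast. All 7 had SDs of log2(scaled FPKM + 0.5) between 2.00 and 3.78, and 0 of them were eligible. TRINITY_DN73389_c1_g2, annotated as chalcone synthase, which opens the flavonoid pathway, had a mean of 22.9 scaled FPKM in LB and 1076 in LR, and ran from 1.59 to 5613 over the 30 libraries. TRINITY_DN68066_c0_g2, a leucoanthocyanidin dioxygenase on the way to anthocyanins, ran from 0.735 to 3974, with a change of 8.0 on the log2 scale from S1 to S5 in LR and of -1.26 in LB. TRINITY_DN80120_c0_g1, a beta-glucosidase, ran from 4.4 to 1159. The 3 cinnamyl-alcohol dehydrogenases TRINITY_DN94308_c2_g4, TRINITY_DN94308_c2_g5 and TRINITY_DN79928_c2_g1, of lignin synthesis, were listed at 0 in at least 1 library each, and the peroxidase TRINITY_DN75127_c1_g1 ran from 0.330 to 91.0.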

How the data were processed

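Reads of 30 fruit libraries had been trimmed with Cutadapt, assembled with Trinity, clustered with Corset and counted from uniquely placed reads by the authors; the submitters' processing notes name Bowtie2. The deposited values are FPKM per unigene, as the authors computed them, to 2 decimals. FPKM keep no read counts, so no counting intervals are given; the depth stated for the libraries was not used here. Column codes were read by the study's legend (B, L. ruthenicum; R, L. barbarum), where the titles name the opposite species. Read by code, 210 of 210 values of the 7 qPCR unigenes in the study's supplement equalled the deposited ones within 0.005 FPKM, and read by title 6 did. The members, lists and tests were chosen with earlier results of these data known. Named members were the 12 of lowest SD, the 6 of highest and 3 of lowest median level, the 3 inside and 3 outside the edge, the 4 of largest species difference each way and the 3 of largest stage range in each species. The rule also asked for members in a pathway list or beside a unigene of one species only, which found 0, and for the 7 qPCR unigenes as contrast.

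Differences were fitted with limma 3.58.1 (R 4.3.3; trend and robust) on log2(scaled FPKM + 0.5) over 10 groups, with p-values adjusted by Benjamini-Hochberg; fold changes of low unigenes are understated on this scale. The limma step was tested on simulated data. FPKM are not counts, so no count model was used. The alternatives were other scalings, minimums, offsets, filters and measures of spread, a replicate block and libraries left out. Lists were taken from the study's supplement, whose tables are only partly readable here. No sequence was used.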

Additional observations from a re-analysis of the deposited data

How the results depend on the processing

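Of the 200 members, the list chosen with another setting shared 3 with deposited FPKM, 109 with upper-quartile scaling, 103 with scaling by summed FPKM, 88 with a minimum of 20, 106 with the median absolute deviation, 68 from LB alone, 48 from LR alone and 52 with the ratio measure added after seeing the data. It shared 156 with a minimum of 5, 134 with the SD of group means, 141 with the range and 197 with the offset, and 139 to 195 when libraries were left out. In the 47 alternative lists, 0 unigenes were of a pathway list. Members called between species were 143 at 2-fold (beside 58.4% of all tested unigenes) and 188 by adjusted p alone with deposited FPKM. This was in place of 0 and 22, and 48 were called by adjusted p alone with upper-quartile scaling. Members called between stages were 12 and 17 with deposited FPKM, in place of 0 and 9, and by adjusted p alone 14 with upper-quartile scaling and 4 with the filter of FPKM above 0. For the other counts of members under another setting, here and below, the share over all tested unigenes was not computed. Nothing is read from these counts. Leaving out a library gave 0 calls at 2-fold in each case, 18 to 30 between species by adjusted p alone and 3 to 10 between stages. The highest of each came without LB4-3 (30 and 10, the latter also without LR3-3). The rule chose the members for low spread over these same libraries, so the 0 follows from the choice and is no evidence of stability. Between stages, 5 or fewer were left without LB1-1, LB1-2, LB1-3, LB2-2, LB2-3, LB3-1, LB5-3, LR1-1, LR4-1 or LR5-2. The cause was not tested.

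The replicate numbers, used as a block within species, gave 11 members called between species and 14 between stages by adjusted p alone, in place of 22 and 9. The deviations of libraries with the same number correlated at -0.11 to 0.20 in LB (median 0.005, and -0.004 for other numbers) and at 0.02 to 0.22 in LR (median 0.06, and -0.06 for other numbers). In LR all were positive and above the median for other numbers. Whether a number marks a shared tree was not tested, and the main fit did not use the numbers as pairs.

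Of the lists chosen in one species, 46 (LB list in LR) and 35 (LR list in LB) were called over stages with deposited FPKM, in place of 15 and 98, and 10 to 18 and 86 to 109 with a library left out. These calls are of the lists chosen under the main setting. Lists chosen anew under each setting had median SDs in the other species of 0.229 to 0.242 (LB list) and 0.295 to 0.318 (LR list) with a library left out. Chosen anew on deposited FPKM, they had 0.480 and 0.401. Without LB4-3 and LB5-2, chosen after seeing the data, 29 members were called between species and 12 between stages by adjusted p alone. FPKM keep no read counts, and this and the 3 libraries of a group limit the precision of each value.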

Other observations

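In the lists of both species were 6 unigenes that were not among the 200 members and whose level differed between the species, which follows from a low spread within each species and a larger one over both. TRINITY_DN79207_c0_g1 stood at 147 to 234 scaled FPKM in LB (median 176) and at 99.6 to 128 in LR (median 112), and TRINITY_DN91400_c0_g1 at 45.5 to 68.3 (median 51.5) and 30.9 to 44.4 (median 35.9). In both, the 15 LB libraries lay above the 15 LR libraries. TRINITY_DN91445_c0_g2 was at 22.3 to 35.7 in LB and 16.4 to 22.2 in LR, also without overlap, and TRINITY_DN98074_c0_g1 at 17.0 to 29.96 and 12.9 to 17.6, with overlap. TRINITY_DN99025_c1_g1 stood higher in LR, at 27.6 to 34.8 (median 29.99) against 18.5 to 26.4 (median 21.8), without overlap. TRINITY_DN92388_c1_g2 was also higher in LR, at 23.6 to 32.3 against 16.8 to 23.6, where a single value of each species crossed. With deposited FPKM the last pair turned, with LR minus LB at -0.29 and -0.24 on the log2 scale in place of 0.43 and 0.47. With upper-quartile scaling and with scaling by summed FPKM all 6 kept their sign. They were named after their values were seen.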
